A study of Saccharomyces cerevisiae with 6 samples.

Results

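The yeast cell wall genes described here are 34 genes that build, remodel or form the wall of Saccharomyces cerevisiae, chosen by name for their roles in glucan and chitin synthesis, wall remodelling and wall protein structure. The choice was made with earlier results of these data known. They were found by gene identifier among the 6442 genes listed, and 34 of 34 were matched and passed the filter on low counts. Total RNA was sequenced from 3 samples each of yJBH012 and yJBH000, labelled S3 and H0. Both are haploid strains with the synthetic chromosome synV and with the carotenoid genes crtE, crtI and crtYB and a LEU2 marker integrated at CAN1. yJBH012 is a single clone obtained from yJBH000 by SCRaMbLE, the Cre-driven rearrangement of loxPsym sites on synV, and it lacks VAC8 (YEL013W) and YEL014C, which yJBH000 carries. Culture lasted 12 h in flasks at 30 °C by the labels and reached exponential phase in YPD medium by the methods, and neither source says whether the 3 samples came from separate cultures, so the p-values measure the spread between these samples. The labels carry the codes S3 and H0 without a strain name, and the strains were assigned from the methods, which name only these 2 for RNA sequencing. VAC8 had 0, 0 and 1 counts in yJBH012, against 2532, 2473 and 2216 counts in yJBH000.

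The wall of budding yeast is a network of β-1,3-glucan chains to which shorter β-1,6-glucan, chitin and heavily mannosylated proteins are linked. Glucan and chitin are spun out through the plasma membrane by synthases, and enzymes of the wall then extend, branch, cut and crosslink the chains. Most wall proteins are joined to β-1,6-glucan through the remnant of a GPI anchor, while the Pir proteins are bound directly to β-1,3-glucan. The wall is remodelled with growth, with the cell cycle and on nutrient limitation, and the cell wall integrity pathway, a kinase cascade ending in Slt2 and the transcription factor Rlm1, raises many of these genes on wall stress. Daughter cells switch on a further set of wall enzymes to separate from their mothers.

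Levels are given as CPM, read counts of a gene per 1000000 reads of a library whose total was adjusted by the TMM method, and the libraries held 17675299 to 21568860 counts in yJBH012 and 23340054 to 25333938 in yJBH000. Calls rest on the quasi-likelihood test of edgeR at 0.05, after Benjamini-Hochberg adjustment across the 5904 genes that were tested. Of the 34 wall genes, 28 were called, 17 higher and 11 lower in yJBH012, which is 82.4% of them, while 70.5% of all genes tested were called, 34.2% as higher and 36.2% as lower. The largest adjusted p among the 28 was 0.0161 (quasi-likelihood test, Benjamini-Hochberg adjustment), and the 6 others had values from 0.114 to 0.717. Past 2-fold with a call, 9 wall genes were higher and 5 lower, against 10.7% and 4.98% of all genes. For 29 wall genes the libraries of the strains did not overlap, which is 85.3% of them, while 75.5% of all genes showed no overlap. In 17 of the 29 all yJBH012 libraries lay above those of yJBH000, as for 36.9% of all genes, and in 12 they lay below, as for 38.6% of all genes. The median log2 fold change of the 34 genes was 0.18, against -0.01 over all genes. The plot of fold changes by role shows that no role other than the 2 synthases and the 2 crosslinking enzymes moved as a whole.

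**Figure D1:**
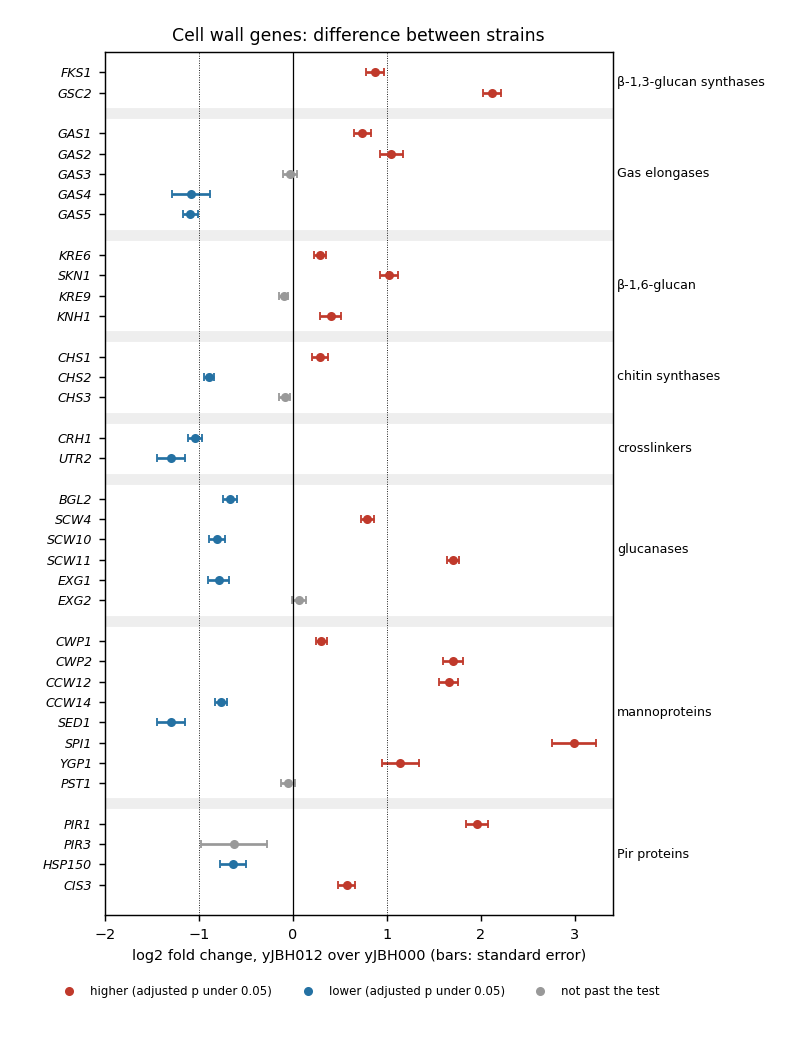
Log2 fold change of each of the 34 wall genes in yJBH012 over yJBH000 (x axis), grouped by role, with the standard error of the fit as bars, dotted lines at 2-fold and colours for genes called higher, called lower or not past the test (3 libraries per strain). The values run from -1.30 for SED1 to 2.99 for SPI1, and both signs occur among the Gas enzymes, the β-1,6-glucan genes, the chitin synthases, the glucanases, the mannoproteins and the Pir proteins. Among the β-1,6-glucan genes only KRE9, which did not pass the test, is negative.

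Among the libraries, replicate 1 of yJBH000 stood apart. It lay at 16.4 on the second principal component, which held 6.06% of the variance over all genes, against -7.53 and -9.33 for replicates 2 and 3. For 31 of the 34 wall genes it was the highest (13) or the lowest (18) of the 3 yJBH000 libraries. Without it 17 wall genes were called higher and 14 lower, with KRE9, CHS3 and PST1 added to those lower. The calls also depend on the scaling. When only the library totals are used, as in the deposited FPKM values, the median over all genes moves to -0.35, 13 wall genes are called higher and 17 lower, and the median of the wall genes relative to all genes is the same 0.19. Changes are therefore to be read against the bulk of the genes, and 24 of the 34 genes, all of them called, kept direction and call in each of 16 alternative settings. The other 10 (GAS3, KRE6, KRE9, KNH1, CHS1, CHS3, EXG2, CWP1, PST1 and PIR3) had small or scattered differences, and their limits are given beside them.

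The upstream regions of 7 wall genes carry a match to the binding motif named for Rlm1, and they are shown because the genes of the integrity pathway and these 7 genes are set side by side further on. The window searched on both strands was the 300 bases that begin 400 bases before each start codon in the R64 reference sequence of RefSeq, which is that of S288C and not of the strains used. The motif occurred in 7 of 34 wall gene windows, or 20.6%, and in 1.05% of 5979 windows over all genes. The wall genes were chosen by role, and many are known to be raised by the integrity pathway, so these shares are no test. Each match printed reads CTA, a run of A or T, and TAG. Each stretch is written 5′ to 3′ on the strand of its gene, with the match in capitals and up to 20 bases on each side inside the window.
GAS5 (chrXV:268044-268086, plus strand): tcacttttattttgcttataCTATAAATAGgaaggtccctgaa
BGL2 (chrVII:1058914-1058963, minus strand): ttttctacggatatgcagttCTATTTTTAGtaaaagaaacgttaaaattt
CWP1 (chrXI:260732-260775, plus strand): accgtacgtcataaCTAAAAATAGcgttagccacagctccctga
CCW14 (chrXII:903485-903534, plus strand): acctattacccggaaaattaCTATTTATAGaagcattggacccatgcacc
PST1 (chrIV:563202-563251, plus strand): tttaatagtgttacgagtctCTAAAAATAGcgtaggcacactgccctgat
PIR3 (chrXI:144101-144150, plus strand): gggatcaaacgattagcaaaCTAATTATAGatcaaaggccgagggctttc
HSP150 (chrX:120206-120255, plus strand): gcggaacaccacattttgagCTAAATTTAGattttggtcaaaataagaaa

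Transcripts of both β-1,3-glucan synthases rose in yJBH012. FKS1 (YLR342W) encodes the catalytic subunit used during growth on glucose, and GSC2 (YGR032W, also called FKS2) its alternative, which is known to be raised on poor carbon sources and wall stress. GSC2 had 603, 650 and 571 CPM in yJBH012, against 125, 141 and 155 CPM in yJBH000. Its log2 fold change was 2.12 ± 0.10 (SE), a 4.34-fold higher level (Benjamini-Hochberg adjusted p = 3.84e-06 in the quasi-likelihood test, with all 3 libraries higher). FKS1 had 766, 797 and 695 CPM in yJBH012, against 365, 419 and 447 CPM in yJBH000, a log2 fold change of 0.88 ± 0.10 (SE). No yJBH012 library of either gene reached down to the yJBH000 range. Per length, GSC2 stood at 0.778, 0.808 and 0.813 of the FPKM of FKS1 in yJBH012, against 0.338, 0.333 and 0.343 in yJBH000, and this ratio does not depend on the scaling of the libraries. The coding sequences share 81.6% of 5231 aligned bases, so that reads could be divided between them differently by the authors' counting.

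The Gas enzymes, which cut β-1,3-glucan and join the pieces into longer chains, split in direction. GAS1 (YMR307W), the main one in growing cells, had 1621, 1698 and 1538 CPM in yJBH012, against 873, 1019 and 1024 CPM in yJBH000, a log2 fold change of 0.74 ± 0.09 (SE). GAS5 (YOL030W) had 488, 492 and 441 CPM in yJBH012, against 1055, 1005 and 964 CPM in yJBH000, a log2 fold change of -1.09 ± 0.07 (SE). Thus GAS1 was high where GAS5 was low, with no overlap for either, and GAS5 was 2.13-fold lower. GAS3 (YMR215W) averaged 206 ± 14.1 CPM in yJBH012 and 211 ± 14.2 CPM in yJBH000 (SD, n = 3 each), its libraries overlapped, and its log2 fold change of -0.03 was -0.37 with library totals alone, where it passed the test.

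GAS2 (YLR343W) and GAS4 (YOL132W) are known for the assembly of the spore wall and were the least abundant of the 34 genes. GAS2 had 15.1, 17.2 and 19.3 CPM in yJBH012, against 8.68, 7.91 and 8.36 CPM in yJBH000, with a log2 fold change of 1.05 ± 0.12 (SE). GAS4 had 2.94, 3.26 and 4.41 CPM in yJBH012, against 7.50, 8.55 and 6.31 CPM in yJBH000, with a log2 fold change of -1.08 ± 0.20 (SE) and as few as 49 counts in a library. The pair thus moved in opposite directions at low levels. Of 14 genes that mark meiosis and sporulation, 8 were called higher and 4 lower (85.7% called, against 70.5% of all genes), and their summed level was 196 to 209 CPM in yJBH012, against 120 to 133 CPM in yJBH000. Much of the difference in this sum came from the spore wall gene SPS100, with 55.0, 66.2 and 55.6 CPM in yJBH012, against 11.3, 10.4 and 11.0 CPM in yJBH000. SPO13, which acts in meiosis, averaged 3.14 ± 0.47 CPM in yJBH012 and 7.34 ± 0.34 CPM in yJBH000 (SD, n = 3 each). Past 2-fold in this list were also IME2, SPS1 and SPS4 as higher and SPR28 as lower. SPS1 had as few as 6 counts in a library and SPR28 as few as 13, so their fold changes rest on few reads. Both strains are haploid, and what lies behind these values was not tested. In bulk RNA, fewer cells that express a gene and less RNA per cell cannot be told apart.

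For β-1,6-glucan, the chain that carries GPI proteins, 3 of 4 genes were called higher, or 75.0%, against 34.2% of all genes. KRE6 (YPR159W) and SKN1 (YGR143W) encode related membrane proteins needed for its synthesis, whose coding sequences share 74.5% of 1622 aligned bases. SKN1 had 290, 297 and 284 CPM in yJBH012, against 165, 128 and 136 CPM in yJBH000, a log2 fold change of 1.02 ± 0.10 (SE). KRE6 averaged 318 ± 12.5 CPM in yJBH012 and 261 ± 13.5 CPM in yJBH000 (SD, n = 3 each), a log2 fold change of 0.29 ± 0.06 (SE) that turned to -0.05 and lost the call with library totals alone. Per length, SKN1 stood at 0.837, 0.848 and 0.873 of KRE6 in yJBH012, against 0.627, 0.456 and 0.464 in yJBH000. KRE9 (YJL174W), a secreted glycoprotein needed for normal β-1,6-glucan, averaged 309 ± 0.91 CPM in yJBH012 and 331 ± 5.94 CPM in yJBH000 (SD, n = 3 each). Its log2 fold change of -0.10 did not pass the test although the libraries did not overlap, and it passed as lower at -0.43 with library totals alone, at -0.14 with upper quartile factors and at -0.09 without replicate 1 of yJBH000. KNH1 (YDL049C), its homolog, had a log2 fold change of 0.40 ± 0.11 (SE), which lost the call with library totals alone (0.07) and without replicate 2 of yJBH012 (0.34).

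Of the 3 chitin synthases, only CHS2 (YBR038W), which lays down the primary septum at cytokinesis, differed by more than a log2 fold change of 0.5. CHS2 had 92.4, 91.6 and 91.8 CPM in yJBH012, against 162, 174 and 177 CPM in yJBH000, with a log2 fold change of -0.89 ± 0.05 (SE). CHS3 (YBR023C), which makes most of the chitin of the lateral wall and of the ring at the bud neck, averaged 111 ± 4.15 CPM in yJBH012 and 118 ± 5.02 CPM in yJBH000 (SD, n = 3 each). Its log2 fold change of -0.09 did not pass the test, though it passed as lower with library totals alone (-0.42) and without replicate 1 of yJBH000 (-0.12). CHS1 (YNL192W), a repair synthase active at cell separation, was called higher at a log2 fold change of 0.29 ± 0.08 (SE), which turned to -0.04 and was no longer called with library totals alone.

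Beyond the synthases, 16 further genes of chitin precursor supply, transport and breakdown were tested, of which 4 were called higher and 7 lower, or 68.8% called against 70.5% of all genes. SKT5 (YBL061C), the activator of Chs3, had 75.4, 73.4 and 71.0 CPM in yJBH012, against 151, 166 and 159 CPM in yJBH000, a log2 fold change of -1.11 ± 0.06 (SE). GFA1, PCM1 and QRI1, singled out after their values were seen, act in that order with GNA1 on the path to the precursor UDP-N-acetylglucosamine and stood at -0.82, -0.62 and -0.61, while GNA1 at 0.11 did not pass the test. CTS1 (YLR286C), the chitinase that opens the septum, had 2024, 2076 and 1905 CPM in yJBH012, against 864, 935 and 922 CPM in yJBH000, a log2 fold change of 1.14 ± 0.07 (SE). Thus the septum synthase and the activator of Chs3 were low where the septum chitinase was high.

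CRH1 (YGR189C) and UTR2 (YEL040W), transglycosylases that link chitin to glucan, both fell in yJBH012. CRH1 had 397, 385 and 370 CPM in yJBH012, against 734, 817 and 824 CPM in yJBH000, with a log2 fold change of -1.04 ± 0.07 (SE). UTR2 had 249, 280 and 279 CPM in yJBH012, against 506, 746 and 734 CPM in yJBH000, with a log2 fold change of -1.30 ± 0.15 (SE). Its lowest yJBH000 library was replicate 1, without which the log2 fold change was -1.46. Together they summed to 647, 665 and 649 CPM in yJBH012, against 1240, 1564 and 1558 CPM in yJBH000. UTR2 lies on chromosome V, which is synthetic in both strains.

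**Figure D2:**
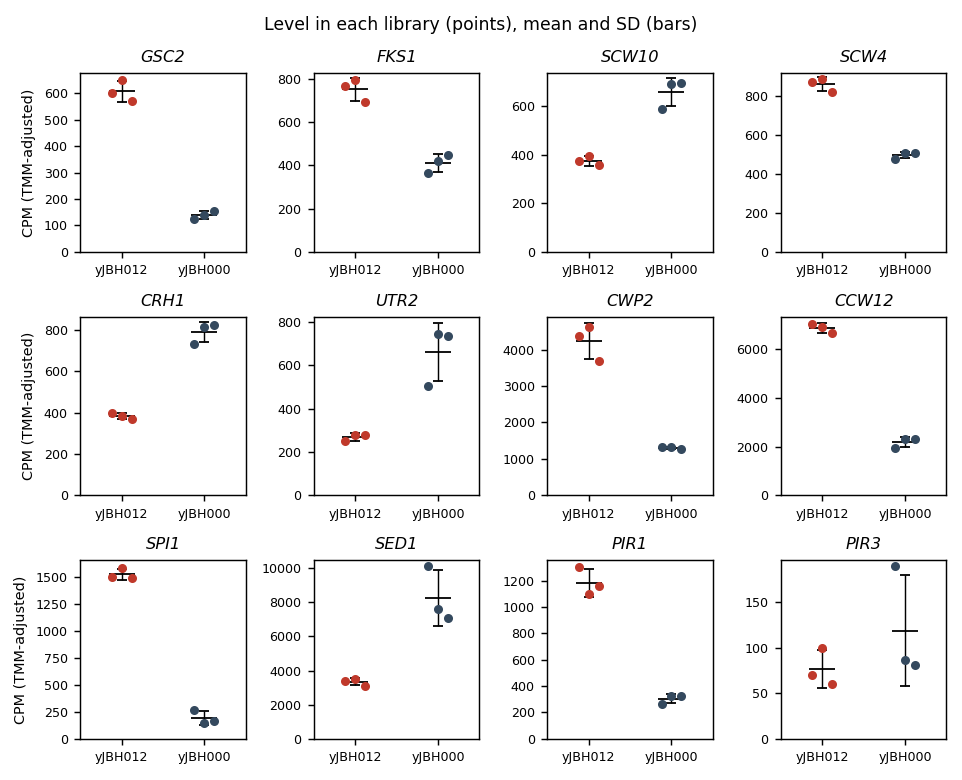
Level of 12 wall genes in CPM adjusted by TMM (y axis, from 0) in each of the 3 libraries of yJBH012 and of yJBH000 (points), with mean and SD as bars. GSC2, FKS1, SCW4, CWP2, CCW12, SPI1 and PIR1 lie higher in every yJBH012 library, SCW10, CRH1, UTR2 and SED1 lie lower, and the PIR3 libraries overlap, with replicate 1 of yJBH000 at 190 CPM.

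The glucanases and glucan transferases that are bound in or secreted through the wall also split, even between close relatives. SCW4 (YGR279C) and SCW10 (YMR305C) encode related wall proteins with similarity to glucanases. SCW4 had 873, 886 and 818 CPM in yJBH012, against 478, 505 and 506 CPM in yJBH000, a log2 fold change of 0.79 ± 0.07 (SE). SCW10 had 375, 397 and 357 CPM in yJBH012, against 591, 692 and 696 CPM in yJBH000, a log2 fold change of -0.81 ± 0.09 (SE). Their order was inverted, since SCW10 stood at 0.426, 0.444 and 0.433 of the FPKM of SCW4 in yJBH012, against 1.23, 1.36 and 1.36 in yJBH000. Their coding sequences share 72.4% of 776 aligned bases.

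SCW11 (YGL028C), a relative expressed in daughter cells, was the most raised of this role. It had 280, 301 and 290 CPM in yJBH012, against 82.1, 93.8 and 91.9 CPM in yJBH000, a log2 fold change of 1.70 ± 0.07 (SE) and a 3.26-fold higher level (Benjamini-Hochberg adjusted p = 2.56e-06 in the quasi-likelihood test, with all 3 libraries higher). BGL2 (YGR282C), a major glucan transferase of the wall, had 1348, 1371 and 1332 CPM in yJBH012, against 2236, 2121 and 2075 CPM in yJBH000, with a log2 fold change of -0.67 ± 0.07 (SE). EXG1 (YLR300W), the main secreted exo-β-1,3-glucanase, had 645, 733 and 695 CPM in yJBH012, against 1004, 1305 and 1276 CPM in yJBH000, with a log2 fold change of -0.79 ± 0.11 (SE). BGL2 and EXG1, the 2 most abundant genes of the role in yJBH000, were thus both low in yJBH012, where SCW4 exceeded EXG1. EXG2 (YDR261C), a membrane-anchored relative of EXG1, averaged 67.3 ± 4.78 CPM in yJBH012 and 64.2 ± 4.57 CPM in yJBH000 (SD, n = 3 each) and did not pass the test, while with library totals alone it was called lower at -0.27.

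Of the 8 mannoprotein genes, 5 were called higher (62.5%, against 34.2% of all genes) and 2 lower (25.0%, against 36.2%). CWP1, among the 5, was not called with library totals alone. SPI1 had the largest fold change of the 34 genes. SPI1 (YER150W) encodes a GPI wall protein known to be induced in stationary phase and by weak acids. It had 1496, 1578 and 1490 CPM in yJBH012, against 267, 147 and 160 CPM in yJBH000. Its log2 fold change was 2.99 ± 0.23 (SE), a 7.95-fold higher level (Benjamini-Hochberg adjusted p = 2.62e-05 in the quasi-likelihood test, with all 3 libraries higher). Replicate 1 of yJBH000 was nearest to yJBH012, and without it the log2 fold change was 3.31. SED1 (YDR077W), a major GPI wall protein related to SPI1 and also known to be raised in stationary phase, had 3414, 3530 and 3118 CPM in yJBH012, against 10111, 7592 and 7061 CPM in yJBH000. Its log2 fold change was -1.30 ± 0.15 (SE), a 2.46-fold lower level (Benjamini-Hochberg adjusted p = 0.000181 in the quasi-likelihood test, with all 3 libraries lower), and it was -1.13 without replicate 1 of yJBH000. Per length, SPI1 stood at 0.997, 1.02 and 1.09 of SED1 in yJBH012, against 0.0602, 0.0439 and 0.0516 in yJBH000, so that SPI1, far the rarer of the pair in yJBH000, stood level with SED1 in yJBH012.

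The upstream windows of this pair are shown because the genes moved in opposite directions. The capitals mark the stress response element bound by Msn2 and Msn4, searched as CCCCT on both strands. It occurred 3 times in the SPI1 window and 1 time in that of SED1, in 5 of 34 wall gene windows (14.7%) and in 23.5% of the windows of all genes. SPI1 is on chromosome V, so that its sequence in the synV strains may differ from the R64 sequence printed.
SPI1 (chrV:467970-468269, plus strand): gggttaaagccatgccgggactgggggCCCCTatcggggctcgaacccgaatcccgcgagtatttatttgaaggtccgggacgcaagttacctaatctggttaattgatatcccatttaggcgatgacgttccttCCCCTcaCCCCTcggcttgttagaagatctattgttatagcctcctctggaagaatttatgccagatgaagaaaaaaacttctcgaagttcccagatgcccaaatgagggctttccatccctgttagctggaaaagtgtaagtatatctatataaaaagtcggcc
SED1 (chrIV:600393-600692, plus strand): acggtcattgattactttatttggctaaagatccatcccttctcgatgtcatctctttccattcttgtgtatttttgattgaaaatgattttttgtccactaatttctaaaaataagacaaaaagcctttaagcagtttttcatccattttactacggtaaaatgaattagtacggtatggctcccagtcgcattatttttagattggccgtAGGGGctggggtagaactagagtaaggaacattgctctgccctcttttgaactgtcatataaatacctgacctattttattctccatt

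CCW12 (YLR110C) and CWP2 (YKL096W-A), abundant GPI proteins of growing cells, rose by similar amounts. CCW12 had 7036, 6919 and 6639 CPM in yJBH012, against 1946, 2297 and 2289 CPM in yJBH000, a log2 fold change of 1.66 ± 0.10 (SE). CWP2 had 4387, 4635 and 3675 CPM in yJBH012, against 1323, 1314 and 1260 CPM in yJBH000, a log2 fold change of 1.70 ± 0.11 (SE). CWP1 (YKL096W) lies next to CWP2 on chromosome XI, downstream on the same strand with a gap of 1600 bases, and moved far less. Its level averaged 36.4 ± 1.65 CPM in yJBH012 and 29.6 ± 0.83 CPM in yJBH000 (SD, n = 3 each), and its log2 fold change of 0.30 ± 0.06 (SE) was -0.03 and not called with library totals alone.

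The remaining mannoproteins went in both directions. YGP1 (YNL160W), a secreted glycoprotein made on nutrient limitation, had 2755, 3079 and 2936 CPM in yJBH012, against 1785, 1063 and 1124 CPM in yJBH000, a log2 fold change of 1.14 ± 0.20 (SE) that was 1.42 without replicate 1 of yJBH000. CCW14 (YLR390W-A), a GPI protein of the inner wall, had 759, 748 and 721 CPM in yJBH012, against 1300.5, 1234 and 1253 CPM in yJBH000, a log2 fold change of -0.77 ± 0.07 (SE). PST1 (YDR055W), known to be induced by wall damage, averaged 370 ± 9.55 CPM in yJBH012 and 382 ± 30.9 CPM in yJBH000 (SD, n = 3 each), with overlapping libraries and a log2 fold change of -0.05, though it passed as lower with library totals alone (-0.38) and without replicate 1 of yJBH000 (-0.11).

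These changes altered the make-up of the wall transcripts. CCW12 and CWP2 together held 60.9%, 60.8% and 59.1% of the summed FPKM of the 34 genes in yJBH012, against 26.7%, 31.8% and 31.8% in yJBH000. SED1 held 6.17% ± 0.07 in yJBH012 and 24.0% ± 3.26 in yJBH000 (SD, n = 3 each), where it ranked first of the 34, while its rank was 4 in yJBH012 after CCW12, CWP2 and SPI1. The places of SPI1 at 6.37% and SED1 at 6.17% in yJBH012 do not differ beyond their spread. SPI1 held 1.26% ± 0.36 in yJBH000 and ranked 16 there. These shares are free of library scaling but are parts of 1 whole, so that they are not independent of each other. SPI1, YGP1 and PIR1 also held larger shares in yJBH012, at 6.37%, 5.14% and 2.17%, against 1.26%, 3.67% and 0.89% in yJBH000. The 34 genes took 3.05%, 3.14% and 2.85% of all counts in yJBH012, against 3.66%, 3.21% and 3.14% in yJBH000, where the nearest libraries were 3.136% in yJBH012 and 3.141% in yJBH000. On the TMM scale the same sum was higher in every yJBH012 library, at 32220 to 34950 CPM in yJBH012, against 28220 to 32110 CPM in yJBH000. The summed FPKM, in which each count is divided by gene length, was 44440 to 49910 in yJBH012, against 35780 to 40830 in yJBH000. The direction of the sum thus depends on the measure.

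**Figure D3:**
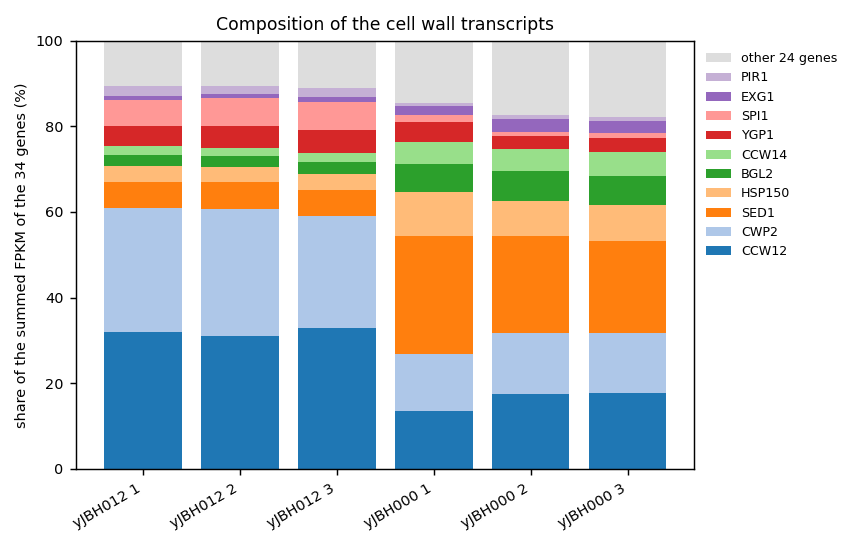
Share of the summed FPKM of the 34 wall genes (y axis, percent) taken by 10 named genes and by the other 24 in each of the 3 libraries of yJBH012 and of yJBH000 (x axis). CCW12 and CWP2 fill 59.1% to 60.9% of each yJBH012 bar and 26.7% to 31.8% of each yJBH000 bar, where SED1 is the largest single gene.

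The Pir proteins, which are bound to β-1,3-glucan through ester links and carry internal repeats, differed within neighbouring pairs. PIR1 (YKL164C) and PIR3 (YKL163W) are divergent neighbours on chromosome XI with 1581 bases between them. PIR1 had 1304, 1098 and 1157 CPM in yJBH012, against 263, 327 and 326 CPM in yJBH000, a log2 fold change of 1.96 ± 0.11 (SE) and a 3.89-fold higher level. PIR3 had 70.5, 99.9 and 59.8 CPM in yJBH012, against 190, 86.2 and 81.0 CPM in yJBH000, with overlapping libraries. Its log2 fold change of -0.63 ± 0.35 (SE) did not pass the test, was -0.12 without replicate 1 of yJBH000 and was called lower at -0.97 with library totals alone.

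HSP150 (YJL159W, also PIR2), a heat-induced secreted Pir protein, and CIS3 (YJL158C, also PIR4) converge on chromosome X with 574 bases between them, and they moved in opposite directions. HSP150 had 2541, 2375 and 2256 CPM in yJBH012, against 4535, 3304 and 3327 CPM in yJBH000, a log2 fold change of -0.64 ± 0.14 (SE) that was -0.47 without replicate 1 of yJBH000. CIS3 had 761, 751 and 728 CPM in yJBH012, against 436, 534 and 536 CPM in yJBH000, a log2 fold change of 0.57 ± 0.09 (SE). Per length, CIS3 stood at 0.543, 0.574 and 0.586 of HSP150 in yJBH012, against 0.175, 0.294 and 0.293 in yJBH000. HSP150 and CIS3 share 82.4% of 301 aligned bases and PIR1 and HSP150 75.6% of 900, so that some reads of the repeats may not be assigned with certainty.

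Ratios within a library were compared for 10 related pairs, since they do not depend on library totals. In 9 pairs the ratios of the strains did not overlap, 6 higher and 3 lower in yJBH012. Of all single genes tested, 75.5% showed no overlap, and no such share was computed for other gene pairs. The exact permutation test gave p = 0.1 for each of these 9 (two-sided, 3 libraries against 3, adjusted p = 0.111 over the 10 pairs by Benjamini-Hochberg), which is the smallest p this design allows. The largest differences in log2 ratio, yJBH012 minus yJBH000, were 4.33 for SPI1 over SED1, -2.51 for PIR3 over PIR1 and -1.60 for SCW10 over SCW4. For PIR3 over PIR1 the ratios were 0.0567, 0.0954 and 0.0543 in yJBH012, against 0.7573, 0.2765 and 0.2609 in yJBH000. Replicate 1 of yJBH000 thus widens that difference. UTR2 over CRH1 differed by -0.24 with overlapping libraries (exact permutation p = 0.3).

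SCW11 and CTS1 belong to the genes by which a daughter cell leaves its mother. A list of 12 such genes and their regulators was examined, which includes CTS1, already counted above among the chitin genes. Like the other lists, it was chosen with earlier results of these data known. Its shares are therefore a description, and the list was not tested as a set. All 12 were called, while 70.5% of all genes were, and the largest adjusted p was 0.0354 (quasi-likelihood test, Benjamini-Hochberg adjustment). Of these, 9 were higher, or 75.0% against 34.2% of all genes, and 3 were lower. DSE1 (YER124C) had 444, 438 and 402 CPM in yJBH012, against 79.1, 95.3 and 98.8 CPM in yJBH000, a log2 fold change of 2.23 ± 0.10 (SE). EGT2 (YNL327W), a wall protein of early G1, had 604, 536 and 591 CPM in yJBH012, against 114, 156 and 164 CPM in yJBH000, a log2 fold change of 1.997 ± 0.14 (SE). The daughter-specific glucanase genes or wall genes DSE2 and DSE4 stood at 1.67 and 1.17, PRY3 at 1.14 and ASH1, a repressor found in daughter nuclei, at 1.08. The regulators SWI5, CBK1 and MOB2, named after their values were seen, were lower at -0.21, -0.16 and -0.57. Regulators lay on both sides, since ASH1 was higher and so was AMN1, which acts in the exit from mitosis, at 0.93. AMN1, too, was named after its value was seen.

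Genes of the cell wall integrity pathway were called in each direction about as often as all genes. Of 26 signalling genes, from the Wsc and Mid2 sensors to the transcription factors, 9 were called higher and 9 lower, or 34.6% each. That is 69.2% called, while 70.5% of all genes were called, 34.2% as higher and 36.2% as lower. The median log2 fold change of the 26 genes was 0.02, against -0.01 over all genes. Past 2-fold were MKK2 (1.01), a MAP kinase kinase, and BAG7 (1.03), a GTPase-activating protein of Rho1, as higher, and SWI4 (-1.02), a subunit of the SBF transcription factor, and PTP2 (-1.11), a phosphatase of the pathway, as lower. SLT2 (YHR030C), the MAP kinase, had 128, 125 and 133 CPM in yJBH012, against 226, 189 and 182 CPM in yJBH000, a log2 fold change of -0.63 ± 0.09 (SE). RLM1 (YPL089C) had 137, 138 and 132 CPM in yJBH012, against 236, 200 and 198 CPM in yJBH000, a log2 fold change of -0.64 ± 0.08 (SE). Kinase and transcription factor RNA were thus low together, with replicate 1 of yJBH000 the highest library for each.

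Among 5 further genes known as outputs of the pathway, PRM5 and KDX1 fell, FBP26 rose, and YPS3 and NCW2 did not pass the test. PRM5 (YIL117C) had 32.1, 39.5 and 40.1 CPM in yJBH012, against 265, 203 and 208 CPM in yJBH000, a log2 fold change of -2.60 ± 0.13 (SE). KDX1 (YKL161C), a kinase-like paralog of Slt2, had 18.0, 19.9 and 20.1 CPM in yJBH012, against 62.1, 61.5 and 57.3 CPM in yJBH000, a log2 fold change of -1.64 ± 0.07 (SE). Of the 7 wall genes whose windows are printed with the Rlm1 motif, GAS5, BGL2, CCW14 and HSP150 were called lower. PST1 and PIR3 were not called, and CWP1 was called higher at 0.30. With library totals alone, PST1 (-0.38) and PIR3 (-0.97) were called lower and CWP1 (-0.03) was not called. In the main fit 36.2% of all genes and 32.4% of the 34 wall genes were called lower. Whether the motif bears on the direction was not tested. None of the 5 output genes held the motif in the window searched. Matches to the SBF motif, searched as CACGAAA on both strands, were found in the windows of GSC2, GAS1 and CRH1, or 8.82% of the wall genes and 4.85% of all genes, and these 3 stood at 2.12, 0.74 and -1.04.

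**Figure D4:**
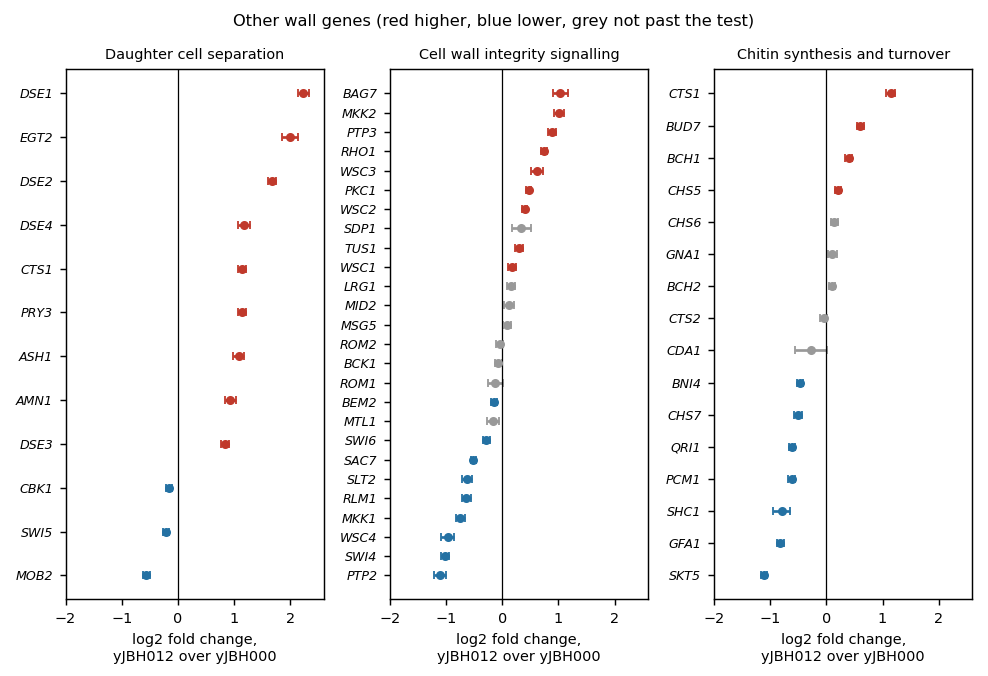
Log2 fold change in yJBH012 over yJBH000 (x axis) of the tested genes of daughter cell separation (12), cell wall integrity signalling (26) and chitin synthesis and turnover (16), each with its standard error (3 libraries per strain). Of the separation genes 9 lie higher and 3 lower (SWI5, CBK1 and MOB2), while the signalling genes spread from -1.11 to 1.03. CTS1 is shown among both the separation and the chitin genes.

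A list of 19 further glucan and wall remodelling genes had 7 members higher and 7 lower, or 36.8% each, against 34.2% higher and 36.2% lower of all genes. Past 2-fold were UGP1 (YKL035W), which makes the UDP-glucose used for glucan, glycogen and trehalose, with 1405, 1410 and 1628 CPM in yJBH012, against 652, 462 and 454 CPM in yJBH000, a log2 fold change of 1.503 ± 0.15 (SE). NCA3 at 1.44 and SUN4 at 1.07 belong to the SUN family of wall proteins, and CWH41 at 1.07 encodes the glucosidase that trims N-glycans in the endoplasmic reticulum. No gene of this list was more than 2-fold lower, as were 4.98% of all genes. Among 7 other wall protein genes, 1 was called higher and 3 lower (57.1% called, against 70.5% of all genes), with the aspartyl protease gene YPS1 at 1.12 and the sporulation genes SPS2 and SPS22 at -1.68 and -1.58, while ECM33 at -0.07 did not pass the test. SPS22 had as few as 13 counts in a library. As a check of the mating type, the 7 a-specific genes summed to 1903 to 2128 CPM in yJBH012, against 1674 to 1741 CPM in yJBH000, with 2 of them called higher and 3 lower, a median log2 fold change of -0.11 and MFA1 at 1.01, and the 4 alpha-specific genes to 61.9 to 71.1 CPM in yJBH012, against 74.0 to 75.0 CPM in yJBH000. As a share of all counts the a-specific sum was not higher, at 0.178% ± 0.011 in yJBH012 and 0.192% ± 0.002 in yJBH000 (SD, n = 3 each).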

How the data were processed

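RNA was sequenced from 3 samples of each strain with a NEBNext Ultra library kit. The authors deposited read counts per gene without normalization, and FPKM, which the authors computed from the same counts, gene length and library total. The submitters' processing notes name HTSeq 0.6.1 and DESeq 1.18.0, and the aligner, genome build and strand setting are not given in the sources used here. Lengths implied by counts and FPKM equalled the R64 exon lengths for 34 of 34 wall genes and for 99.9% of all genes, and 0 wall genes overlapped another annotated gene. Of 6442 identifiers, 6436 were matched to the R64 table.

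Differences in counts were tested in R 4.3.3 by edgeR 4.0.16 (genes kept by filterByExpr, TMM factors from 0.885 to 1.14, glmQLFit, glmQLFTest, Benjamini-Hochberg adjustment over 5904 genes, yJBH012 over yJBH000). The paper's transcriptome methods name no test for single genes, and DESeq is named in the submitters' notes. Standard errors are the log2 fold change divided by the square root of F. CPM has no prior count. Ratios of related genes used log2(FPKM + 0.1) and exact permutation tests. The alternatives were DESeq2 size factors, upper quartile factors, library totals alone, other filters on low counts, the DESeq2 1.42.0 Wald test, limma 3.58.1 on log2(FPKM + 1) or log2(FPKM + 0.1), a replicate block and each library left out. No library pair was a duplicate, with chi-square per degree of freedom of at least 7.21. The procedure was tested on simulated data. Coding sequences were aligned with BLAST 2.17.0. The rule for named genes took the 34 wall genes, genes of the other lists past 2-fold and the test, and a few genes chosen by name, of which SLT2, RLM1 and CTS1 are given and 1 is not reported here. Other genes named (GFA1, PCM1, QRI1, GNA1, SWI5, CBK1, MOB2, AMN1, FBP26, YPS3, NCW2 and ECM33) fall outside the rule and were chosen after their values were seen. The members and lists were chosen with earlier results of these data known. Reads carry no molecular identifiers, so counting precision reflects reads, not molecules.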

Additional observations from a re-analysis of the deposited data

How the results depend on the processing

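Of 544 values of single wall genes under 16 alternatives, 501 kept direction and call, 5 lost the call, 21 gained it and 17 changed sign. Alternatives scaled by library totals account for the moved counts. With library totals alone, 17 wall genes were lower and 10 lower past 2-fold, the median of the wall genes was -0.16, and 1144 of all genes were higher, 3401 lower, 390 higher past 2-fold and 741 lower past 2-fold, against 2022, 2138, 630 and 294. With log2(FPKM + 1) the wall genes gave 10 lower past 2-fold and a median of -0.15, and all genes 1144, 3388, 368 and 677. With log2(FPKM + 0.1) these were 10, -0.16, 1145, 3380, 395 and 731, and with log2(FPKM + 1) and no filter 10, -0.15, 1192, 3380, 410 and 685. In the order of these 4 settings, KRE6 turned to -0.0483, -0.0483, -0.0486 and -0.0483, CHS1 to -0.0441, -0.0479, -0.0485 and -0.0479, CWP1 to -0.0318, -0.0325, -0.0332 and -0.0325, and EXG2 to -0.267, -0.259, -0.265 and -0.259. The share of higher genes among those past 2-fold was 68.2% with TMM and 34.5% with library totals. On leaving out single libraries, GAS3 ran from -0.0885 to 0.0239, changing sign without replicate 3 of yJBH012, the wall genes gave 16 to 17 higher and 11 to 14 lower, and no fold moved by over 1.5 times. Same-numbered libraries correlated at -0.007, 0.077 and 0.077 in their deviations from the strain means, so the numbers were not taken as pairs, and a replicate block left 17 wall genes higher and 11 lower, with 1950 and 2048 over all genes. GAS4, with 49 counts in its lowest library, is the wall gene most limited by depth.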
